A study of Mus musculus with 26 samples.

Results

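Cell cycle and replication genes were followed in RNA-seq libraries of mouse fibroblasts on their way to pluripotency. The set holds 38 genes of the 18198 in the deposited table. They were chosen by name from textbook roles, with earlier results of these data known. By phase they were split into 7 G1 genes, 17 genes of S-phase entry and replication, and 14 mitotic genes. All 38 were found by symbol, and all 38 were among the 16038 genes tested.

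The table covered 26 libraries in 13 groups of 2. Embryonic fibroblasts (MEF) were at passage 2 and kept in serum medium. Embryonic stem cells (ESC) were at passages 20 to 24, of a CBA/CaJ X C57BL/6J background. Induced pluripotent stem cells (iPSC) were lines picked as colonies, at passages 5 to 8, and both stem cell types were grown in N2B27 with 2i and LIF. Fibroblasts infected with retrovirus for Pou5f1, Sox2 and Klf4 (OSK) were sampled at days 0, 1, 3, 5 and 7. Fibroblasts given the same factors with Jun (OSK+cJun) were sampled at days 0, 1, 3 and 7, and OSK cells with a lentiviral hairpin against Sap30 (OSK+shSap30) on day 7. All reprogramming groups thus carried OSK. The labels gave no strain for groups other than ESC, no control hairpin or control virus for OSK, and no record of which of 2 media, iCD1 or a serum ESC medium, each day received. Nothing in them ties replicates to separate cultures, so p-values measure only the spread between libraries, which may be technical.

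The deposited values were normalised scores that had the same distribution in every library, so sequencing depth was unknown, levels are relative within a library, and equal values recur between libraries. Fold changes are differences of log2(value + 1) from limma fitted to all libraries, given with the standard error (SE) and the p adjusted by Benjamini-Hochberg over all tested genes. A gene was called, and is said to have risen or fallen, with an adjusted p under 0.05 and a log2 fold of at least 1 in size. In bulk RNA, fewer cells of a type and less RNA per cell cannot be told apart. Of the 12 pluripotency markers, 12 were called higher in ESC than in MEF, and of the 14 fibroblast markers 14 were called lower. The summed pluripotency markers were 29663 and 30441 in ESC and 34 and 9 in MEF. Jun was 4616 to 8981 in the OSK+cJun libraries and 13 to 1010 in the others, and Sap30 was 20 and 41 with the hairpin against 301 and 378 in OSK day 7.

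The cell cycle is driven by cyclin-dependent kinases (CDKs). D-type cyclins with CDK4 and CDK6 phosphorylate the retinoblastoma protein RB1, which releases E2F transcription factors, and cyclin E with CDK2 then opens S phase. CDC6 and CDT1 load the MCM helicase on replication origins before DNA synthesis, and cyclin B with CDK1 starts mitosis. Mouse pluripotent stem cells are known for a short G1 phase and high cyclin E, and fibroblasts for stopping in G1 when crowded, starved or aged in culture.

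The S-phase and mitotic genes are known to be read through different promoter letters, so the 250 bases before the start of transcription were taken from RefSeq (GRCm38.p6) for the 30 members that the promoter table held, with 32 promoters. E2F sites were searched as TTTCCCGC, TTTGGCGC, TTTCGCGC or TTTGCGC. The cell cycle genes homology region (CHR), bound by MuvB complexes, was searched as TTTGAA and the NF-Y box as CCAAT, all on both strands. E2F letters stood in 6 of 16 promoters of S-phase members (37.5%) and in 1 of 11 of mitotic members (9.09%), against 2.83% of all 32851 promoters. CHR letters stood in 5 of 11 mitotic promoters (45.5%) and 1 of 16 S-phase promoters (6.25%), against 16.0% of all. CCAAT stood in 10 of 11 mitotic (90.9%) and 10 of 16 S-phase promoters (62.5%), against 33.8% of all. These are matches of letters and not measured binding.

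The promoters shown carry these letters and belong to members with called changes or, for Cdk1, hold both E2F and CHR letters. Each is written 5′ to 3′ on the strand of the gene, with matches in capitals. ATTGG and TTCAAA are CCAAT and TTTGAA read on the other strand. Mcm5 (chr8:75109259-75109508, plus strand) and Mcm6 (chr1:128359706-128359955, minus strand) encode subunits of the helicase, and both hold a pair of overlapping E2F matches.
Mcm5: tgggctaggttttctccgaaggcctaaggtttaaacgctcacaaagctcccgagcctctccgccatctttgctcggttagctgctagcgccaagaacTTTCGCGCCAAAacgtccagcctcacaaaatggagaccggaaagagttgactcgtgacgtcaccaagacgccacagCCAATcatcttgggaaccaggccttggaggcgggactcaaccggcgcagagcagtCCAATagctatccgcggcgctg
Mcm6: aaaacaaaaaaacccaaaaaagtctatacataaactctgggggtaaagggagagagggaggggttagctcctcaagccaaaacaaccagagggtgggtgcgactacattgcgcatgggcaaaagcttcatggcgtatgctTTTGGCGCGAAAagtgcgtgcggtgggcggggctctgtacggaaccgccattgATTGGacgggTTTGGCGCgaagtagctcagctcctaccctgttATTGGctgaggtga
Cdk1 (chr10:69352913-69353162, minus strand) encodes the mitotic kinase, Ccnb2 (chr9:70421555-70421804, minus strand) one of its B-type cyclins, and Top2a (chr11:99024190-99024439, minus strand) the topoisomerase that untangles chromosomes.
Cdk1: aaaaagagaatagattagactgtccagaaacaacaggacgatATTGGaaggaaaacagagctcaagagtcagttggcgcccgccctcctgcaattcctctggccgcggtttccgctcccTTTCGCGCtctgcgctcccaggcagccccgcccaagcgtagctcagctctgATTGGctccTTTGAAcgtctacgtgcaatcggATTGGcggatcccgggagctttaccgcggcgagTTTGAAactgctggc
Ccnb2: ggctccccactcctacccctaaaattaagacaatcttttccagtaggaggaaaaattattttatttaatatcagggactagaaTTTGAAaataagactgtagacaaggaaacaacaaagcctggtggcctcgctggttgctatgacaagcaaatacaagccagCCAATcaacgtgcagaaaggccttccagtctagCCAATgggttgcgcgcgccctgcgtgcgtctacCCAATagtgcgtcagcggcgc
Top2a: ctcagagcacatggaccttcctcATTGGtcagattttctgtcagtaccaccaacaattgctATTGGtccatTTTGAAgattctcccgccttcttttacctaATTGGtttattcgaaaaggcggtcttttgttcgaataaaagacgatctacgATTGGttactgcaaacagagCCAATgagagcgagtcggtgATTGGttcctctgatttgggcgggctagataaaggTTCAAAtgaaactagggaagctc
The 250 bases before Mybl2 and Cdt1, members with large changes in the values that follow, held no exact match to these letters. Looser forms of the sites were not searched.

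The 2 MEF libraries stood apart from each other in these genes. All 31 S-phase and mitotic members were higher in MEF replicate 1 than in replicate 2, with a median log2 difference of 1.27. Top2a was 2266 and 925, Mcm3 755 and 273 and Plk1, a mitotic kinase, 632 and 215, in that order of replicates. Of the CDK inhibitor genes, 4 were higher in replicate 2, with Cdkn2a at 36 and 350, Cdkn1b at 159 and 384, Cdkn1a at 909 and 1502 and Cdkn2b at 224 and 405. Cdkn1c at 612 and 425, Cdkn2c at 90 and 81 and Cdkn2d at 91 and 67 were higher in replicate 1. Summed markers of blood and macrophages were 208 and 1489. In the other groups the median difference between replicates over the 31 genes ran from -0.35 in OSK+cJun day 7 to 0.35 in OSK+cJun day 1. Counts against MEF are therefore given with and without MEF replicate 2.

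**Figure D1:**
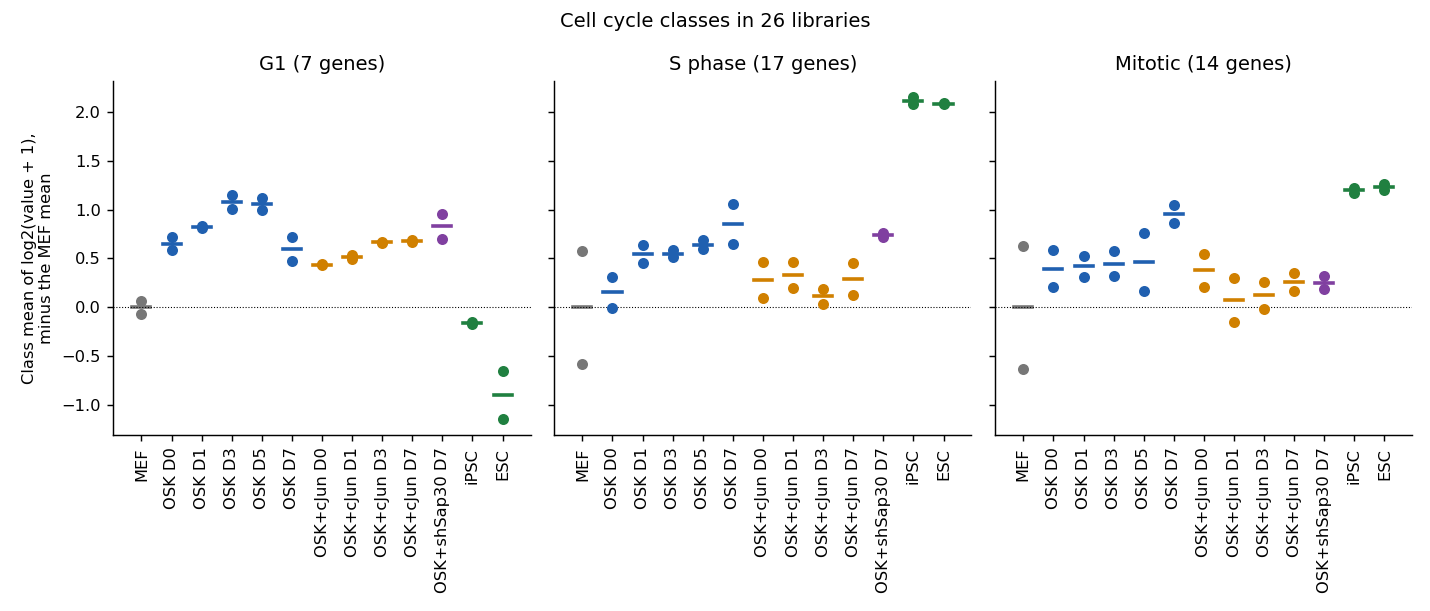
Mean of log2(value + 1) over the members of each class, minus the mean of the MEF libraries, by group. Each point is 1 library, each bar the mean of 2. For S phase the MEF points lie at 0.577 and -0.577, and the ESC and iPSC points between 2.07 and 2.15.

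Replication genes were far higher in ESC than in MEF, mitotic genes were moderately higher, and G1 genes were near level apart from the loss of cyclin D2. Medium differed between the stem cells and the MEF and OSK groups, and passage between the stem cells and MEF. In comparisons of these groups, neither can be told apart from cell type. In ESC, 16 of 17 S-phase members and 10 of 14 mitotic members rose, and 1 of 7 G1 members fell. The class medians of the log2 fold were 1.94, 1.38 and 0.32, against 0.13 over all genes tested. Over all 38 members 26 rose and 1 fell, where of all genes 22.4% passed as higher and 20.6% as lower, 43.0% in all.

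Mybl2 encodes B-Myb, a transcription factor that rises at S-phase entry and turns on mitotic genes. Its values were 3031 and 2793 in ESC and 214 and 66 in MEF, a log2 fold of 4.60 (SE 0.35, adjusted p = 6.56e-09). Both ESC libraries were far above both MEF libraries. Cdt1, the licensing factor, was 860 and 971 against 182 and 84, higher by 2.87 (SE 0.28, adjusted p = 1.77e-07) on the log2 scale. Mcm2 was 3150 and 2939 against 719 and 287, higher by 2.74 (SE 0.32, adjusted p = 1.12e-06). These were the 3 S-phase members with the largest folds, and none of their ESC and MEF values overlapped.

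The other helicase genes Mcm3 to Mcm7 rose by log2 folds of 1.93 to 2.68, so all 6 subunits were called higher. Cdc6, which loads the helicase with CDT1, rose by 2.71, and the sliding clamp Pcna by 1.94. Rrm2 and Tyms, which supply deoxynucleotides, rose by 1.46 and 1.50, and E2f1, Cdk2 and the phosphatase Cdc25a by 1.36, 1.69 and 1.46. The E cyclins parted. Ccne1 was 628 and 506 in ESC and 361 and 175 in MEF and rose by 1.16, whereas Ccne2 was 180 and 173 and 165 and 140, a log2 difference of 0.21 (SE 0.27, adjusted p = 0.527).

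Among mitotic genes, Ccnb1, the main mitotic cyclin, was 2405 and 1860 in ESC and 871 and 316 in MEF and rose by 2.01 (SE 0.39, adjusted p = 0.000294) on the log2 scale. Top2a was 5502 and 5038 against 2266 and 925 and rose by 1.86 (SE 0.38, adjusted p = 0.000424). Aurka, a kinase of the spindle poles, was 584 and 560 against 311 and 117 and rose by 1.58 (SE 0.35, adjusted p = 0.000909). The 7 other called genes, which included the checkpoint kinase genes Bub1 and Bub1b and the anaphase activator Cdc20, rose by 1.25 to 1.48. Mki67, the proliferation antigen Ki-67, did not follow, with 1203 and 1156 in ESC, inside the MEF range of 1677 and 696 (log2 difference 0.13, SE 0.51, adjusted p = 0.865). Foxm1, a transcription factor of mitotic genes, was also short of the call, at 445 and 501 against 544 and 247 (0.36, limma adjusted p = 0.372), as were Ccna2 (0.91, adjusted p = 0.0185) and Cdk1 (0.66, adjusted p = 0.122).

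Of the G1 genes, Ccnd2 was called. Ccnd2, cyclin D2, was 1 and 19 in ESC and 1608 and 1942 in MEF, and fell by 8.13 (SE 0.65, adjusted p = 2.3e-08) on the log2 scale, where ESC values near 0 make the size depend on the 1 that was added. Ccnd1 was 1162 and 1311 against 1211 and 500, and Ccnd3 1268 and 1203 against 1194 and 814, without a call. Rb1 was 132 and 100 against 91 and 114, and Cdkn1b, the CDK inhibitor p27, was 226 and 245 against 159 and 384. Both pairs overlapped.

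Without MEF replicate 2 the ESC count was 15 higher and 1 lower, with 12 of 17 S-phase members and 3 of 14 mitotic members called, and class medians of 1.43 and 0.73. The 3 mitotic members were Ccnb1 (1.28), Bub1 (1.07) and Top2a (1.22), and Aurka was not among them (0.88). Of the other S-phase members with folds given, the calls of Cdc25a, Rrm2, Tyms and Ccne1 were lost without that library. With spread estimated from the ESC and MEF libraries alone, 15 members were called.

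Of the wider replication list, which holds origin, fork and nucleotide genes, 34 of 44 were called higher and 0 lower. The wider mitotic list had 27 of 45 higher and 0 lower (22.4% of all genes were called higher and 20.6% lower). Uhrf1, which couples DNA methylation to replication, was 3406 and 3608 in ESC against 727 and 261 in MEF, Mcm10, a fork assembly factor, 728 and 769 against 132 and 70, and Orc1, of the origin recognition complex, 418 and 394 against 75 and 36. Their log2 folds were 3.01, 2.95 and 2.94. Of the mitotic list, the kinetochore gene Spc24 rose by 2.83, the F-box cyclin Ccnf by 2.73 and separase, Espl1, by 2.45.

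Of 15 genes for CDK inhibitors and G1 turnover, 4 rose and 4 fell in ESC (22.4% of all genes rose and 20.6% fell). Cdkn1c, the inhibitor p57, was 1 and 10 against 612 and 425 in MEF, Cdkn2b, p15, 36 and 41 against 224 and 405, and Cdkn2c, p18, 21 and 13 against 90 and 81. They fell by 6.77, 2.94 and 2.30 on the log2 scale. Of 15 E2F and pocket protein genes, 6 rose and 2 fell. The repressive pocket protein gene Rbl2 fell by 1.66, while its relative Rbl1 rose by 1.29 and E2f2 by 2.77. Without MEF replicate 2 the Rbl1 call was lost (0.94). The counts then were 24 of 44 replication genes higher, 11 of 45 mitotic genes higher, 2 inhibitor genes higher and 3 lower, and 3 E2F and pocket protein genes higher and 2 lower.

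**Figure D2:**
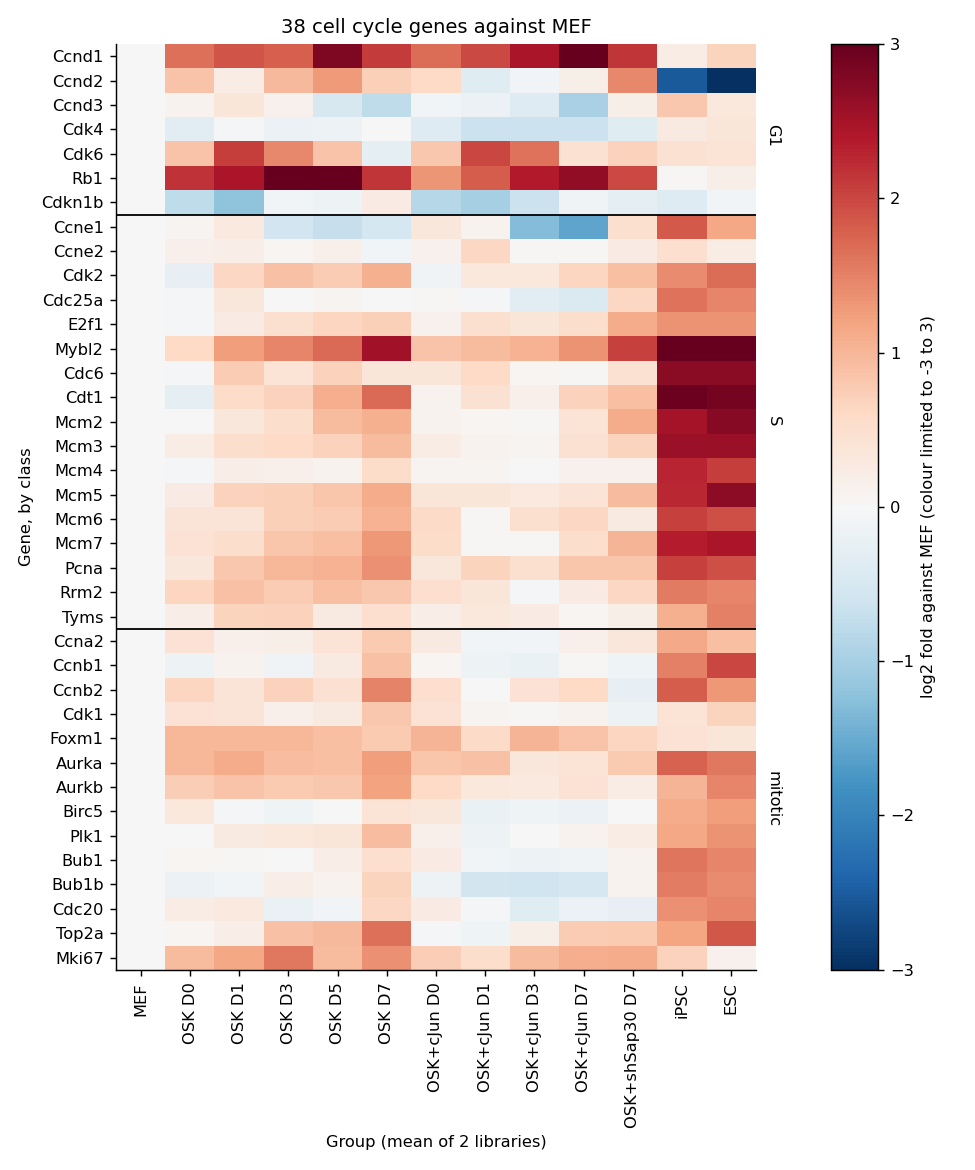
Log2 fold of each of the 38 genes against the MEF mean, by class (rows) and group (columns), with colours limited at -3 and 3. Most replication genes are deep red in iPSC and ESC, Ccnd2 is blue there, and Ccnd1 and Rb1 are red in all reprogramming groups.

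iPSC, like ESC, had high replication and mitotic genes. Of the 38 members, 27 rose against MEF, 16 in S phase and 11 in mitosis, and 1 fell, Ccnd2 (of all genes 20.2% were called higher and 19.7% lower, 40.0% in all). Mybl2 was 3265 and 3265, Cdt1 964 and 964 and Mcm3 2797 and 2715 in iPSC, with log2 folds against MEF of 4.77 (SE 0.35, adjusted p = 1.31e-08), 2.95 (SE 0.28, adjusted p = 2.57e-07) and 2.60 (SE 0.31, adjusted p = 3e-06). Cdc6 was 501 and 460 and rose by 2.71. The mitotic members with the largest folds were Ccnb2 at 805 and 759 (1.81), Aurka at 642 and 672 (1.78) and Bub1 at 968 and 878 (1.60). With MEF replicate 2 left out, the class medians against MEF were 1.59 for S phase and 0.54 for mitosis. In that fit 12 mitotic members had folds above 0 and 2 below. Without MEF replicate 2, 17 rose and 1 fell, and 15 were called with spread from the compared libraries alone.

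Between iPSC and ESC, 1 of 38 members was called, Ccnd2, which was 256 and 369 in iPSC and 1 and 19 in ESC and so higher by 5.61 (SE 0.65, adjusted p = 2.08e-05) on the log2 scale (4.57% of all genes were called higher and 1.65% lower, 6.22% in all). The iPSC values lay between ESC and MEF (1608 and 1942). Summed fibroblast markers moved with it, at 9276 and 17259 in iPSC, 319 and 936 in ESC and 99805 and 106082 in MEF, and their part in the Ccnd2 difference was not tested. The other 37 members differed by log2 values of -0.68 (Top2a) to 0.68 (Ccne1). With spread from the iPSC and ESC libraries alone, the Ccnd2 call was lost and 0 members were called. Passage differed as well, so it cannot be told apart from cell type.

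On day 0, the members called between OSK cells and MEF were Ccnd1 and Rb1, at a share below that of all genes. Ccnd1 was 2465 and 2401 in OSK day 0 and 1211 and 500 in MEF, higher by 1.64 (SE 0.43, adjusted p = 0.0221) on the log2 scale. Rb1 was 432 and 500 against 91 and 114, higher by 2.18 (SE 0.31, adjusted p = 0.000204). These 2 of 38 members were called higher and 0 lower (5.26% of members, where of all genes 4.92% were higher and 2.06% lower, 6.98% in all). The S-phase median was 0.16 and the mitotic 0.38, and neither class had a call.

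This comparison turned on the MEF libraries. Without MEF replicate 1, 9 members rose and Cdkn1b fell, and without MEF replicate 2 only Rb1 was called, with S-phase and mitotic medians of -0.44 and -0.28. Ccnd1 was also lost without either OSK day 0 library, and 0 members were called with spread from the compared libraries alone. From the wider lists, Rrm1, the large subunit of ribonucleotide reductase, was 2808 and 3040 against 1655 and 777 and rose by 1.36 (SE 0.29, adjusted p = 0.00519), and Cdkn1c was 125 and 118 against 612 and 425 and fell by 2.06 (SE 0.61, adjusted p = 0.0422). The Rrm1 call was lost without MEF replicate 2 or OSK day 0 replicate 2, and the Cdkn1c call without any 1 of the 4 libraries.

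Over the OSK course, in the fit to all libraries, the share of members called in either direction stayed below that of all genes. Each member called in that fit had risen. Against day 0, 0 of 38 members were called on day 1 by limma (3 at unadjusted p under 0.05), 2 rose on day 3, 4 on day 5 and 7 on day 7, and 0 fell at any of these days. The shares of all genes called higher were 3.18%, 8.55%, 9.80% and 11.3%, lower 3.12%, 8.69%, 9.86% and 12.6%, and in all 6.30%, 17.2%, 19.7% and 23.8%. Of the members 0%, 5.26%, 10.5% and 18.4% were called, all of them higher, which is below the share of all genes called higher on day 3 and above it on days 5 and 7. These shares were not tested against each other. The day 3 calls were Rb1 and Cdk2, and the mitotic calls, 2 of 14, were those of day 7. The S-phase median went from 0.32 on day 1 to 0.46, 0.48 and 0.73, and the mitotic median was 0.09, 0.02, -0.02 and 0.44, at days 1, 3, 5 and 7. The day 5 mitotic median was 0.32 without OSK day 5 replicate 1 and -0.26 without replicate 2. Those of days 1 and 3 also changed sign with the library left out, while that of day 7 ran from 0.26 to 0.66. All 4 comparisons share the day 0 libraries. In some fits with 1 library left out, a G1 member was called lower on day 7.

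Cdt1 was 118 and 90 on day 0, 201 and 163 on day 1, 171 and 235 on day 3, 239 and 293 on day 5 and 416 and 388 on day 7. Each day's pair lay above day 0, and by day 7 Cdt1 had risen by 1.95 (SE 0.28, adjusted p = 4.71e-05) on the log2 scale. Mybl2 was 225 and 145, 293 and 274, 332 and 325, 429 and 357 and 731 and 645 on the same days, and rose by 1.92 (SE 0.35, adjusted p = 0.000381). Its day 7 pair did not overlap with any earlier day. Cdk2, the kinase of cyclin E, was 157 and 160 on day 0, 383 and 307 on day 3 and 448 and 341 on day 7, and was called at days 3, 5 and 7 with log2 folds of 1.11, 1.01 and 1.30. The call on day 3 was lost without OSK day 3 replicate 1 (0.95), and that on day 5 without OSK day 0 replicate 1 (0.99).

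At day 7 Mcm2 and Pcna had also risen, by 1.04 and 1.02, both lost without OSK day 0 replicate 2 or OSK day 7 replicate 1. Of the mitotic genes, Top2a was 1798 and 1271 on day 0, 2950 and 2414 on day 3, 2132 and 3784 on day 5 and 5502 and 3782 on day 7, and rose by 1.59 (SE 0.38, adjusted p = 0.00334). Ccnb1 was 484 and 456 on day 0 and 920 and 1025 on day 7, with a log2 fold of 1.05 (SE 0.39, adjusted p = 0.0484), a call that was lost when any 1 of the 4 libraries was left out. Ccne1 had no call, with 333 and 213 on day 0 and 218 and 141 on day 7. Without OSK day 0 replicate 2, the count on day 7 was 4 in place of 7, and without either day 0 library the count on day 5 was 2 in place of 4.

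In the G1 class, Rb1 had a transient course, with 432 and 500 on day 0, 577 and 549 on day 1, 1189 and 1120 on day 3, 901 and 1007 on day 5 and 548 and 371 on day 7. Its rise on day 3 was 1.31 (SE 0.31, adjusted p = 0.00509), and on day 5 1.03 (SE 0.31, adjusted p = 0.0206), the latter lost when any 1 library was left out. The day 7 pair spanned the day 0 pair. Ccnd1 was 2465 and 2401 on day 0, 7715 and 3771 on day 5 and 3263 and 3406 on day 7, and Ccnd2 2793 and 3609, 6118 and 3031 and 2711 and 3152, without a call. Ccnd3 was 952 and 1194 on day 0 and 508 and 665 on day 7 (log2 difference -0.87, SE 0.23, adjusted p = 0.00648), and Cdkn1b 145 and 148 and 279 and 307 (0.99, SE 0.32, adjusted p = 0.0241). In both genes the pairs did not overlap, and neither fold reached 1 in size.

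Of the wider replication list, 7 of 44 rose and 0 fell on day 7. In the mitotic list 7 of 45 rose and 0 fell (11.3% of all genes rose and 12.6% fell). Dut, which clears dUTP, was 259 and 227 on day 0 and 1068 and 943 on day 7, and geminin, Gmnn, the inhibitor of CDT1, 70 and 57 and 189 and 225, with log2 folds of 2.04 and 1.69. The origin-firing kinase gene Cdc7 was 50 and 46 on day 0 and 139 and 163 on day 1, where its fold was 1.63 (SE 0.28, adjusted p = 0.00146). The guardian of cohesion Sgo1 rose by 1.17 on day 7 and the phosphatase Cdc25c by 1.21. Both calls were lost without OSK day 0 replicate 2 (0.82 for Sgo1), and that of Cdc25c also without OSK day 7 replicate 2. Without OSK day 0 replicate 2, 2 of the 45 mitotic genes were called higher.

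E2f2 was 13 and 10 on day 0, 89 and 111 on day 3 and 94 and 77 on day 7, a log2 fold of 2.79 (SE 0.31, adjusted p = 2.77e-06), and the repressor E2f7 fell by 1.66, lost without OSK day 0 replicate 1 or OSK day 7 replicate 2. Cdkn1c fell from 125 and 118 to 24 and 13, by 2.71. Cdkn2a, whose locus encodes the inhibitors p16 and p19Arf, was 41 and 48 on day 0 and 149 and 528 on day 7, a rise of 2.63 (SE 0.79, adjusted p = 0.0168). That was lost without 3 of the 4 libraries. Over these days summed fibroblast markers went from 78664 and 89955 to 16111 and 14543 and pluripotency markers from 184 and 223 to 3483 and 2479. Their part in the cell cycle values was not tested.

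**Figure D3:**
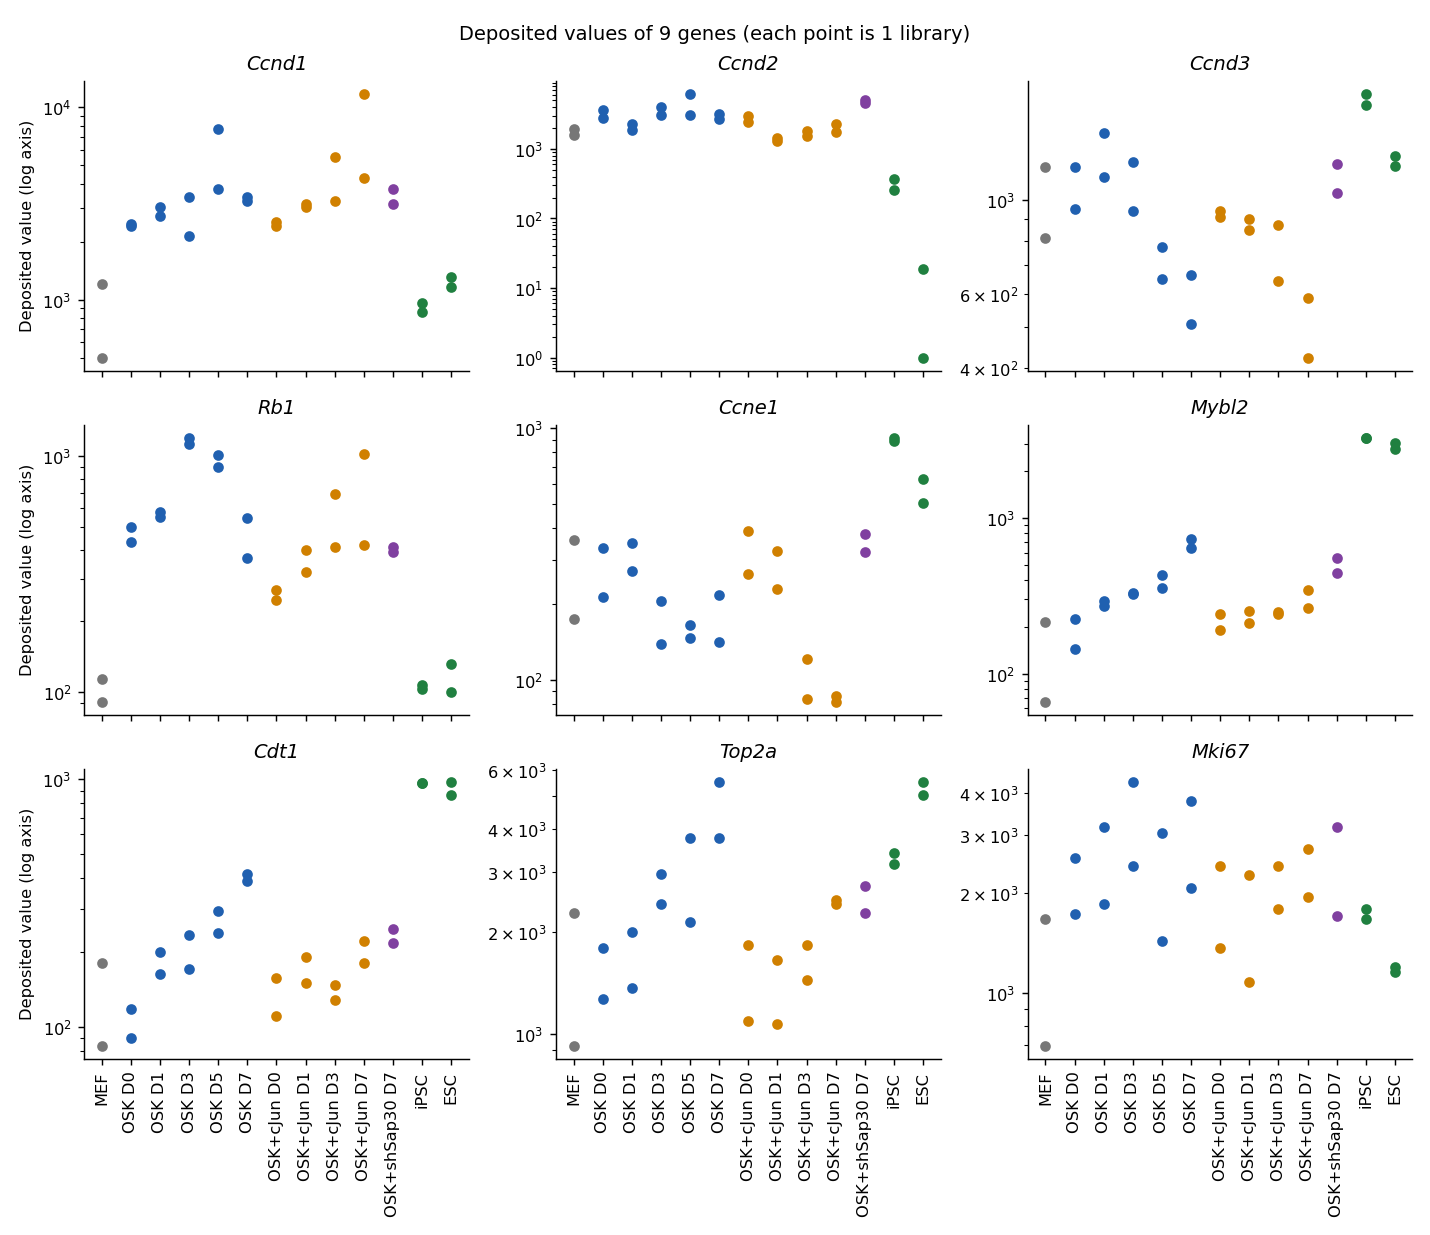
Deposited values (log axis) of 9 genes in the 26 libraries by group, each point 1 library. Cdt1 and Mybl2 climb over the OSK days to 388 to 416 and 645 to 731 on day 7, Ccnd2 is 1 and 19 in ESC, and Ccne1 is lowest in OSK+cJun days 3 and 7.

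Between day 7 OSK cells and ESC, 11 of 17 S-phase members and 1 of 14 mitotic members were called. All 12 were higher in ESC, with class medians of 1.18 and 0.30. Fitted values were higher in ESC for 17 of 17 S-phase and 10 of 14 mitotic members. Over all 38 members 13 rose and 3 fell (of all genes 16.1% and 18.3%, 34.3% in all). On a scale from the OSK day 0 mean (0%) to the ESC mean (100%), the S-phase class of the OSK day 7 libraries stood at 46.7% and 25.3% and the mitotic class at 78.0% and 55.6%. The mitotic scale is the narrower. Class means over MEF in OSK day 0, OSK day 7 and ESC were 0.154, 0.849 and 2.08 for S phase. For mitosis they were 0.397, 0.954 and 1.23. The OSK day 0 libraries themselves stood at 8.13% and -8.13% for S phase and 22.6% and -22.6% for mitosis. The difference between the classes was not tested.

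Cdc6 was 152 and 57 in OSK day 7 and 499 and 462 in ESC, a log2 fold of 2.35 (SE 0.44, adjusted p = 0.000291). Mybl2 rose by 2.08 (SE 0.35, adjusted p = 0.000107), Mcm2 by 1.68 (SE 0.32, adjusted p = 0.000336) and Ccne1 by 1.68 (SE 0.33, adjusted p = 0.00052). Ccnb1 was the called mitotic member (1.12), lost without ESC replicate 1 or either OSK day 7 library. Mki67 lay the other way, at 1203 and 1156 in ESC and 3778 and 2078 in OSK day 7 (log2 difference -1.25, SE 0.51, adjusted p = 0.0541), not a call although the pairs were apart.

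The G1 genes separated the same cells. Against OSK day 7, ESC had lower Ccnd2 (1 and 19 against 2711 and 3152), lower Ccnd1 (1162 and 1311 against 3263 and 3406) and lower Rb1 (132 and 100 against 548 and 371), which fell by 8.85, 1.43 and 1.96. Ccnd3 went up, 1268 and 1203 against 508 and 665, by 1.09 (SE 0.23, adjusted p = 0.000824). The Ccnd1 call was lost without ESC replicate 1 or OSK day 7 replicate 2, and the Ccnd3 call without OSK day 7 replicate 1. Of the wider lists, 16 of 44 replication genes rose and 0 fell, led by Orc1 (2.58), where 16.1% of all genes rose and 18.3% fell. Without OSK day 7 replicate 2, 7 of the 44 rose. In the mitotic list 8 of 45 rose (4 without OSK day 7 replicate 2) and 1 fell, Cdc25b (-1.71). The inhibitor Cdkn2c fell by 3.18.

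With added Jun no S-phase or mitotic member was called higher over the 7 days. Against OSK+cJun day 0, 0 of 38 members were called on day 1 by limma (2 at unadjusted p under 0.05; 4.38% of all genes higher and 3.87% lower, 8.26% in all). At day 3, 1 rose and 1 fell (7.44% and 6.90%, 14.3% in all), and on day 7, 2 rose and 1 fell (8.89% and 8.79%, 17.7% in all). The S-phase medians at days 1, 3 and 7 were 0.00, -0.08 and 0.04 and the mitotic medians -0.33, -0.33 and -0.17. These comparisons share the OSK+cJun day 0 libraries.

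Ccne1, cyclin E1, went down. Its values were 389 and 264 on day 0, 324 and 229 on day 1, 121 and 84 on day 3 and 82 and 86 on day 7. It fell by 1.66 (SE 0.33, adjusted p = 0.00177) on day 3 and by 1.92 (SE 0.33, adjusted p = 0.000355) on day 7 on the log2 scale, and both pairs lay below every other group. Cdt1 was 158 and 111 on day 0 and 181 and 222 on day 7, and Mybl2 240 and 192 and 266 and 344, without a call.

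Rb1 rose, with 270 and 245 on day 0, 687 and 410 on day 3 and 1015 and 418 on day 7. The log2 fold was 1.04 (SE 0.31, adjusted p = 0.0255) on day 3, and on day 7 it was 1.34 (SE 0.31, adjusted p = 0.00427). Ccnd1, a known target of AP-1 factors, was 2539 and 2401 on day 0 and 4302 and 11663 on day 7, and rose by 1.52 (SE 0.43, adjusted p = 0.0157). The replicates on day 7 were far apart in both genes and in opposite order. The Ccnd1 call was lost without OSK+cJun day 7 replicate 2 (0.80) or either day 0 library, the Rb1 call on day 7 without OSK+cJun day 7 replicate 1 (0.70), and that on day 3 without either day 0 library or day 3 replicate 1. With spread from the compared libraries alone, 1 member was called higher on day 1. On days 3 and 7, 1 member was called lower and 0 higher in that setting, so the Rb1 and Ccnd1 calls were lost.

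Some genes of the wider lists did rise with Jun. Cdc7 was 47 and 61 on day 0, 162 and 194 on day 1, 211 and 259 on day 3 and 300 and 350 on day 7. Each later pair lay above day 0, and its log2 fold on day 7 was 2.57 (SE 0.28, adjusted p = 3.35e-06). It was the 1 of 44 replication genes that rose, and Rrm1, from 2808 and 2808 to 916 and 1182, the 1 that fell, by 1.43. In the mitotic list 1 of 45 rose, the phosphatase gene Cdc25b (1.16), and 0 fell (8.89% of all genes rose and 8.79% fell on day 7). Of the 15 E2F and pocket protein genes 2 rose and 1 fell, with E2f2 at 10 and 11 and then 40 and 61 (2.13). Of the 15 inhibitor and turnover genes 2 rose and 2 fell, among them Fbxw7, which marks cyclin E for breakdown, with a rise of 2.22, and Ccng1, with a fall of 1.64. Fbxw7 was also called higher in OSK cells without added Jun on days 1, 3 and 5 against day 0. With 1 library left out, its log2 folds there were 0.75 to 1.92, 1.70 to 2.09 and 1.15 to 1.36. That breakdown is of cyclin E protein, which was not measured, whereas the Ccne1 values are of RNA. A link between the 2 genes was not tested.

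At the same day, OSK+cJun and OSK cells had no called difference in these genes at the start and few later. By limma, 0 of 38 members were called on day 0 (1 at unadjusted p under 0.05; 0.0312% of all genes higher and 0.0436% lower, 0.0748% in all) and 0 on day 1 (2 at unadjusted p under 0.05; 1.24% and 0.742%, 1.98% in all). At day 3, 1 fell and 0 rose (4.00% higher and 3.54% lower, 7.54% in all), and on day 7, 3 fell and 0 rose (6.76% higher and 5.03% lower, 11.8% in all). Mean log2 values below OSK were found for 17 of 17 S-phase members on day 3 and 16 of 17 on day 7, and for 13 of 14 mitotic members at either day. For Ccne2 on day 3 this was by -0.03, with a linear mean of 161 against 159.5. The S-phase medians were -0.43 and -0.49 and the mitotic medians -0.27 and -0.79.

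At day 3 the called member was Rb1, 687 and 410 with Jun and 1189 and 1120 without, lower by a log2 fold of -1.12 (SE 0.31, adjusted p = 0.0296). This was lost without OSK+cJun day 3 replicate 2 or either OSK day 3 library, and with spread from the compared libraries alone. At day 7, Mybl2 was 266 and 344 with Jun and 731 and 645 without, and fell by 1.18 (SE 0.35, adjusted p = 0.0269). Ccne1 was 82 and 86 against 218 and 141 and fell by 1.05 (SE 0.33, adjusted p = 0.0376). Bub1b, the checkpoint protein BUBR1, was 244 and 307 against 675 and 555 and fell by 1.16 (SE 0.28, adjusted p = 0.00829). In each of the 3 the pairs did not overlap.

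The day 7 calls were few and unstable. Without OSK+cJun day 7 replicate 1 none of the 3 was called and Ccnd1 was (1.81), without OSK day 7 replicate 1 only Cdk6 was (1.59), and without OSK+cJun day 7 replicate 2 there were 5 calls, with Cdk6 and Rb1 higher and Mybl2, Cdt1 and Bub1b lower. With spread from the compared libraries alone there were 0. Ccnd1 itself was 4302 and 11663 with Jun and 3263 and 3406 without (log2 difference 1.09, SE 0.43, adjusted p = 0.0972). Cdkn1b was 223 and 234 against 279 and 307, and Ccnd2 1730 and 2308 against 2711 and 3152. Cdk6 ranged from 43 to 139 with Jun, against 83 and 25 in OSK day 7 replicates 1 and 2. The 25 was its lowest value in any library.

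The difference that Jun made to the day 7 change was tested as an interaction, and 0 of 38 members passed by limma (8 at unadjusted p under 0.05; 2.46% of all genes higher and 1.36% lower, 3.82% in all). The values were below 0 for 16 of 17 S-phase and 13 of 14 mitotic members, with medians of -0.56 and -0.72 against -0.05 over all genes. The largest in size were Mybl2 (-1.43, SE 0.49, adjusted p = 0.116), Rb1 (1.38, SE 0.44, adjusted p = 0.0916) and Cdt1 (-1.36, SE 0.40, adjusted p = 0.0673). Rb1 passed without OSK+cJun day 7 replicate 2 (2.02).

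In the wider lists on day 7, 4 of 44 replication genes fell with Jun and 1 rose. The mitotic list had 3 of 45 lower and 0 higher (5.03% of all genes fell and 6.76% rose). Gmnn was 59 and 103 with Jun and 189 and 225 without, and Dut 341 and 476 against 1068 and 943, with log2 folds of -1.39 and -1.31, both lost without OSK+cJun day 7 replicate 1. Of mitotic genes, the checkpoint genes Ttk and Mad2l1 fell by 1.20 and 1.18 and Gtse1 fell by 1.24. The Ttk call was lost without OSK+cJun day 7 replicate 1 and the Gtse1 call without 3 of the 4 libraries. Without OSK+cJun day 7 replicate 1, 0 replication genes and 1 mitotic gene were called lower. Summed fibroblast markers were 41142 and 40886 with Jun against 16111 and 14543 without, and pluripotency markers 1075 and 803 against 3483 and 2479. Their part in these differences was not tested.

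**Figure D4:**
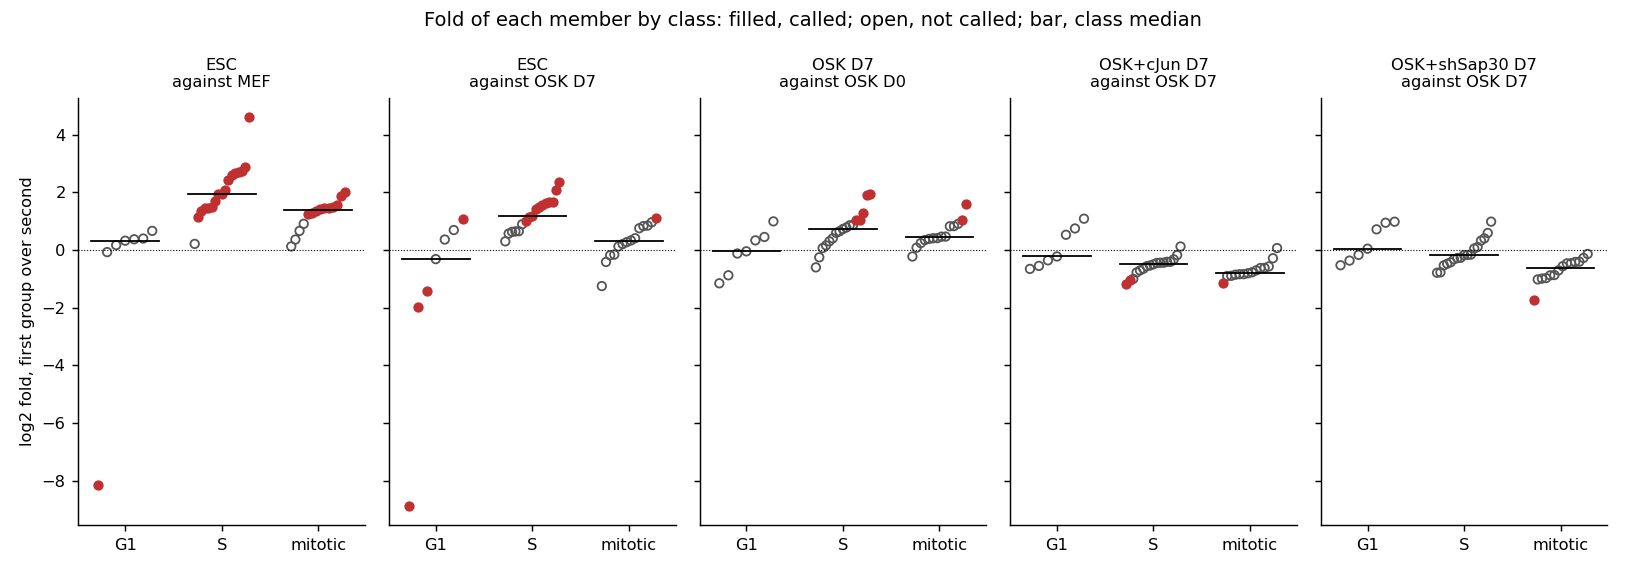
Log2 fold of each of the 38 genes by class in 5 comparisons. Filled points were called, open points were not, and bars are class medians, which run from 1.94 for S phase in ESC against MEF to -0.79 for mitotic genes in OSK+cJun against OSK on day 7.

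With the hairpin against Sap30, 1 member was called, Ccnb2. All 14 mitotic members had values below OSK day 7, with a median log2 difference of -0.63, against 11 of 17 S-phase members with a median of -0.17 and -0.01 over all genes. Without OSK day 7 replicate 1, 12 of 14 mitotic members were below. The difference between the classes was not tested. Of the 38 members, 1 fell, Ccnb2, and 0 rose (4.92% of all genes lower and 4.93% higher, 9.85% in all). Ccnb2, a B-type cyclin of mitosis, was 225 and 153 with the hairpin and 515 and 745 without, and fell by 1.73 (SE 0.33, adjusted p = 0.00222) on the log2 scale. The value of 153 was the lowest of all 26 libraries, and 225 was above only MEF replicate 2 (158) and OSK+cJun day 1 replicate 2 (180) among the others.

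Cdk1, Ccnb1, Ccne1, Cdk6 and Ccnd3 are described because leaving out 1 library called them, a choice made after their values were seen. Cdk1 and Ccnb1 differed between the hairpin libraries, at 655 and 311 and 741 and 310, against 875 and 896 and 920 and 1025 in OSK day 7. Both hairpin libraries were below OSK, replicate 2 the more, and without replicate 1 both were called lower (-1.51 and -1.64). Ccne1 was 321 and 378 with the hairpin against 218 and 141, a log2 difference of 0.99 (SE 0.33, adjusted p = 0.0546), and was called higher without OSK day 7 replicate 1 (1.30), as was Cdk6 (1.83). Cdk6 ranged from 87 to 96 with the hairpin, against 83 and 25 in OSK day 7 replicates 1 and 2. The 25 was its lowest value in any library. Ccnd3 was 1214 and 1036 against 508 and 665 (0.95, SE 0.23, adjusted p = 0.0104), and passed the fold limit without OSK day 7 replicate 2 (1.14) or OSK+shSap30 replicate 2 (1.06). The count over all members was 2 or 3 with any 1 library left out, and Ccnb2 was among them each time. It was 0 with spread from the compared libraries alone.

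In the other G1 genes, Ccnd1 was 3151 and 3769 against 3263 and 3406, Ccnd2 5017 and 4609 against 2711 and 3152, Rb1 413 and 391 against 548 and 371 and Cdkn1b 278 and 148 against 279 and 307, none of them called. The Ccnd2 pairs did not overlap, and the hairpin values were the higher. Of the wider lists, 5 of 44 replication genes and 4 of 45 mitotic genes fell and 0 rose in either (4.92% of all genes fell and 4.93% rose). Gmnn fell by 1.51, the centromeric histone gene Cenpa by 1.41 and securin, Pttg1, by 1.36. The Cenpa call was lost without 2 of the 4 libraries and the Pttg1 call without 3. Without OSK day 7 replicate 2, 2 replication and 0 mitotic genes of these lists were called lower. Summed pluripotency markers were 1477 and 1567 with the hairpin against 3483 and 2479, and fibroblast markers 14809 and 17335 against 16111 and 14543. Their part was not tested.

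Ccng1, cyclin G1, a target of p53, was 11662 and 21544 with the hairpin and 2793 and 2400 without, and rose by 2.61 (SE 0.39, adjusted p = 0.000457). The value of 21544 is the highest in the table, so this fold may be understated. Cdkn1c was 61 and 91 against 24 and 13 and rose by 2.01 (SE 0.61, adjusted p = 0.0348). Leaving out any of 3 of the 4 libraries ended that call. With 1 hairpin in the labels and no control hairpin, effects of the hairpin other than on Sap30 cannot be told apart. The deposited columns of the hairpin libraries are also named in another style than those of the other OSK libraries. The labels name no batch, so a separate preparation, if there was one, cannot be told apart from the hairpin.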

How the data were processed

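The authors sequenced TruSeq RNA libraries on a NextSeq 500, per the labels' protocols. The submitters' processing notes name bcl2fastq, Bowtie2, RSEM and mm10, with no versions. The deposited values are whole-number normalised scores, 1 per gene and library, and the normalisation step is not given in the sources used here. Library totals ran from 4619641 to 4624161, the 10 highest genes of each library shared the value 21544, and sorted values differed by at most 2 at any rank, so read depth and counting error are unknown.

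Values were taken as log2(value + 1). Of 18198 genes, the 16038 with a value of at least 10 in 2 or more libraries were fitted with limma 3.58.1 (R 4.3.3, statmod 1.5.0), with 1 mean for each of 13 groups over 26 libraries and a robust trended spread, in 18 comparisons. The test was tried on simulated data. The members and lists were chosen with earlier results of these data known. Genes given in every library were, for each comparison, up to 3 called members of each class with the largest folds and those called against their class, the D-type cyclins, Cdkn1b and Rb1. From each wider list they were up to 3 called genes with the largest folds, libraries apart and a mean of at least 50 in the higher group. Other members are named where they complete a class, and a few other genes for their values. Alternatives were 0.1 or 10 added before log2, no filter, centring on the library median, a replicate block, the compared libraries only, and each library left out, which was added for the wider lists after seeing the data. Promoters came from RefSeq (GRCm38.p6).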

Additional observations from a re-analysis of the deposited data

Results flagged for a closer look

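Gmnn, which encodes the inhibitor of CDT1, was the 1 gene of the cell cycle lists whose day 7 change differed with and without Jun in a direct test. Those lists held 38 members and 119 wider genes. Among all genes tested, 2.46% were called higher and 1.36% lower, 3.82% in all. Gmnn went from 70 and 57 on day 0 to 189 and 225 on day 7 with OSK, and from 73 and 87 to 59 and 103 with OSK+cJun. The difference of the log2 changes was -1.72 (SE 0.40, limma adjusted p = 0.0212). The call was lost without 5 of the 8 libraries and with spread from the compared libraries alone (adjusted p = 0.0959).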

How the results depend on the processing

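Adding 0.1 or 10 before log2, dropping the filter and centring each library on its median moved no count of called members by over 1.5 times. With spread from the compared libraries only, the counts were 15 for ESC against MEF, 15 for iPSC against MEF, 0 for iPSC against ESC, 0 for OSK day 0 against MEF, 1 each for OSK+cJun days 1, 3 and 7 against day 0, 0 for OSK+cJun against OSK on days 3 and 7, and 0 for OSK+shSap30, where fewer libraries estimate the spread. Leaving out 1 library gave 16 to 30 for ESC against MEF, 18 to 31 for iPSC against MEF, 1 to 10 for OSK day 0 against MEF, 2 to 4 for OSK day 5 and 4 to 8 for OSK day 7 against day 0. It gave 1 to 2 for OSK+cJun day 3 against day 0, 0 to 1 for OSK+cJun against OSK on day 3 and 1 to 5 on day 7, 2 to 3 for OSK+shSap30, and 0 to 1 for the interaction. A lone library left in a group is assumed to vary like the other groups. With the replicate number as a block, the count was 4 for OSK day 0 against MEF and 1 for the interaction, and no other count moved by over 1.5 times. The numbers did not pair the libraries by their labels: over 78 pairs of groups the correlation of same-numbered deviations ran from -0.0883 to 0.331 (median -0.00127). It was over 0.1 in 28 of the pairs, and 0.265 to 0.331 between OSK and OSK+cJun of the same day. Between day 0 and later days of the same course it was 0.193 to 0.3, apart from -0.0699 for OSK day 5. These are hints from the data, not the design. In the block fit the members called were Ccnd1, Rb1, Foxm1 and Aurka on OSK day 0 against MEF and Ccne1 (-1.32) in the interaction. Of 152 named calls, 89 were kept without any 1 library, 63 were lost without at least 1, and 0 changed sign. Depth is unknown, so what it limits cannot be given.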
